A study of Mus musculus with 21 samples.

Results

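The Myc and Max network was followed here through 8 genes chosen by name: Myc, Max, Mnt, Mxd1, Mxd3, Mxd4, Mxi1 and Mga. They were 8 of the 47643 genes in the count table, and all 8 were among the 15300 genes that had at least 10 counts over the 21 libraries and entered the tests. The libraries came from splenic CD4+ T cells of Tg4 Tiger Nr4a3-Tocky mice, in which a transgenic T cell receptor recognises a myelin basic protein (MBP) peptide, Tiger is a GFP reporter of Il10, and Tocky is a fluorescent Timer protein, maturing from blue to red, that reports Nr4a3 activity downstream of the receptor. All groups carried these alleles, the controls included. The 7 groups of 3 mice were an untreated control and mice injected subcutaneously, without adjuvant, with the strongly recognised tyrosine variant of the peptide (4Y MBP) at a low dose (0.8 µg) or a high dose (80 µg), with cells taken at 4, 12 or 24 h. The Timer gate changed with time (blue without red at 4 h, blue and red at 12 h, red without blue at 24 h), so that gate and time cannot be told apart. Only cells that had signalled were kept in the immunised groups, and the gate of the control is not given in the sources used here. A clonal receptor, male and female mice whose ages the labels do not give, and a comparison of peptide-treated mice with untreated rather than vehicle-treated mice limit the groups as a model.

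MYC is a transcription factor that binds DNA only as a dimer with MAX, and the MYC-MAX dimer activates genes of ribosome production, metabolism and cell division at E-boxes. The MXD proteins (MXD1, MXI1, MXD3 and MXD4) and MNT also pair with MAX, bind the same E-boxes, and recruit SIN3-histone deacetylase complexes that repress transcription. MGA is a large MAX partner that belongs to a variant Polycomb complex, PRC1.6. In T cells MYC is induced by the antigen receptor and drives growth and division, whereas several MXD genes are known from resting or differentiated cells.

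In GENCODE coordinates on GRCm38, Myc lies on the plus strand of chromosome 15 (61985391 to 61990374), Max on the minus strand of chromosome 12 (76937269 to 76962201), Mnt on the plus strand of chromosome 11 (74830920 to 74845725) and Mga on the plus strand of chromosome 2 (119897228 to 119969581). The MXD genes lie on the minus strand of chromosome 6 for Mxd1 (86647042 to 86669161), chromosome 13 for Mxd3 (55325168 to 55329823) and chromosome 5 for Mxd4 (34173883 to 34187720), and on the plus strand of chromosome 19 for Mxi1 (53310518 to 53375810). Exons of 3 of these genes overlap a gene on the opposite strand, by 105 bases for Mxd3 (Prelid1), 514 bases for Mxd4 (an antisense transcript, Gm42846) and 194 bases for Mxi1 (Gm10197). Whether reads were counted by strand is not given in the sources used here, so that the overlaps may have affected the counts of these 3 genes. The promoters of Max, Mnt and Mxd4 are printed because each holds the E-box CACGTG, the palindrome that MAX dimers bind. Of the 9 promoter windows RefSeq (GRCm38.p6) lists for 7 of the 8 genes, these 3 held the motif, against 7.15% of 32851 windows of the same 300 bases. Each window runs 5′ to 3′ on the gene's strand from 250 bases before to 50 bases after the start site, at chr12:76962199-76962498 (minus strand) for Max, chr11:74830674-74830973 (plus strand) for Mnt and chr5:34187661-34187960 (minus strand) for Mxd4, with the E-box in capitals.
Max: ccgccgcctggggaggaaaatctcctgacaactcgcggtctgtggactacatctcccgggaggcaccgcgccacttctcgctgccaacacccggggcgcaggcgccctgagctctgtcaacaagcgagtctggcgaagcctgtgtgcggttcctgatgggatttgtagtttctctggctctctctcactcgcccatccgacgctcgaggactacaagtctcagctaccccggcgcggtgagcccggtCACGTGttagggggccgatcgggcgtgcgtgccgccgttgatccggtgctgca
Mnt: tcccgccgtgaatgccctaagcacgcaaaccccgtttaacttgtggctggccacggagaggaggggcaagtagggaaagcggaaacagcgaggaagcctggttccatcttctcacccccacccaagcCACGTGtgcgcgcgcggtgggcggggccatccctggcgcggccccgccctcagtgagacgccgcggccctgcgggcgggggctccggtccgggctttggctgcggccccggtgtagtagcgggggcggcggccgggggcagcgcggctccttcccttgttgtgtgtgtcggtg
Mxd4: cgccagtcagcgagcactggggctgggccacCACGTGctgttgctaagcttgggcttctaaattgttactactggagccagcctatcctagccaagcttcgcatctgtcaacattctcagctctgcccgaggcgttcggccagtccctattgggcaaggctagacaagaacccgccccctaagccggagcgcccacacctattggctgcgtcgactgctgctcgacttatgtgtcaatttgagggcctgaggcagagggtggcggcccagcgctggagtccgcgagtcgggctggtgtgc
The first base of the motif lies 3 bases before the start site of Max, 123 before that of Mnt and 219 before that of Mxd4. CACGTG reads the same on both strands, and a match describes these letters only. The 3 genes that share the motif did not share a time course: at 4 h Max and Mnt rose and Mxd4 fell.

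Library totals ran from 2352800 to 6244279 counts, highest in the 80 µg 24 h group (3688959 to 6244279) and lowest in the control (2352800 to 3278354). All 5 CD4 T cell markers (Cd3e, Cd3d, Cd4, Trbc2, Thy1) were detected in every group, with summed levels of 2055 to 2258 CPM (counts per 1e+06 counts of the library) in the control, 679 to 1190 at 4 and 12 h and 1881 to 2161 at 24 h. The 5 B cell markers summed to 372 to 386 CPM in the control, 28.7 to 78.0 at 4 and 12 h and 275 to 396 at 24 h, mostly from Ighm. Cd79a was at 0 in all libraries of the 0.8 µg 4 h and both 24 h groups. Summed levels of CD8 T cell markers were at most 51.3 CPM, of myeloid markers at most 28.2, of natural killer markers at most 4.49 and of dendritic markers at most 2.66. At 12 h the CD8 T cell markers differed between doses, with 43.6 to 51.3 CPM after 0.8 µg and 13.1 to 22.7 after 80 µg. The transcript Gm42418 alone took 17.0% to 27.8% of the counts of a library. Mitochondrial genes took 7.26% to 7.52% of the counts in the control, 5.00% to 6.48% at 4 and 12 h and 8.22% to 9.44% at 24 h, and their part in the results was not tested. In the 0.8 µg 12 h group replicate 3 stood apart from replicates 1 and 2 (chi-square per degree of freedom of 14.8 and 14.4 over genes, against 3.35 between those 2), and results that change without it are named where they are given. In bulk libraries such as these, fewer cells of a type and less RNA per cell cannot be told apart. The 3 samples of a group were separate mice, stained with different CD4 fluorochromes so that they could be sorted in parallel.

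Peptide changed the network on both sides. Myc rose 17.0-fold (0.8 µg) and 22.1-fold (80 µg) at 4 h, while Mxd4 and Mxi1 fell to a small part of their control levels. At 12 h Myc was still higher, Mxd4 and Mxi1 were still lower, and Mnt and Mga had passed from above to below the control. By 24 h neither Myc nor Mxi1 passed the test against the control, and Mxd3 had risen from near 0 to 84.8 and 161 normalised counts. Between doses, a single gene of the 8 passed the test at each time, Mxd1 at 4 and 12 h and Mxd4 at 24 h, where 12%, 6.27% and 5.93% of all genes passed. A count of 1 in 8 is near the background at 4 h and is no result about the network as a whole.

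A gene is said below to have risen or fallen where DESeq2's Wald test gave a Benjamini-Hochberg adjusted p under 0.05 over all genes tested, and to be called where its shrunken log2 fold change was also beyond 1 in either direction. At 4 h after 0.8 µg, 7 of the 8 genes passed (54.6% of all genes tested did), 4 of them higher (25.4% of all genes) and 3 lower (29.2%), and 5 were called (40.7%). After 80 µg at 4 h the counts were again 7 passing (57.1% of all genes), 4 higher (26.3%), 3 lower (30.7%) and 5 called (43.5%). Groups did not overlap for 7 of the 8 genes at 0.8 µg (61.9% of all genes) and 6 at 80 µg (63.9%). At 12 h after 0.8 µg, 7 genes passed (53.1% of all genes), 2 higher (25.2%) and 5 lower (27.9%), 5 were called (37.7%) and 7 did not overlap the control (59.3%). At 12 h after 80 µg, 6 genes passed (52.7%), 2 higher (25.3%) and 4 lower (27.4%), 4 were called (37.9%) and 6 did not overlap (60.1%). At 24 h only 2 genes passed at 0.8 µg (36% of all genes), 1 higher (20.8%) and 1 lower (15.2%), with 1 called (17.3%) and 3 not overlapping (48.3%). At 24 h after 80 µg 3 genes passed (39.1%), 1 higher (22.1%) and 2 lower (16.9%), with 1 called (20.2%) and 6 not overlapping (50.8%). With 8 genes and a background in which more than 1 in 3 of all genes passed, these counts do not set the network apart, and the values of each gene carry the description.

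**Figure D1:**
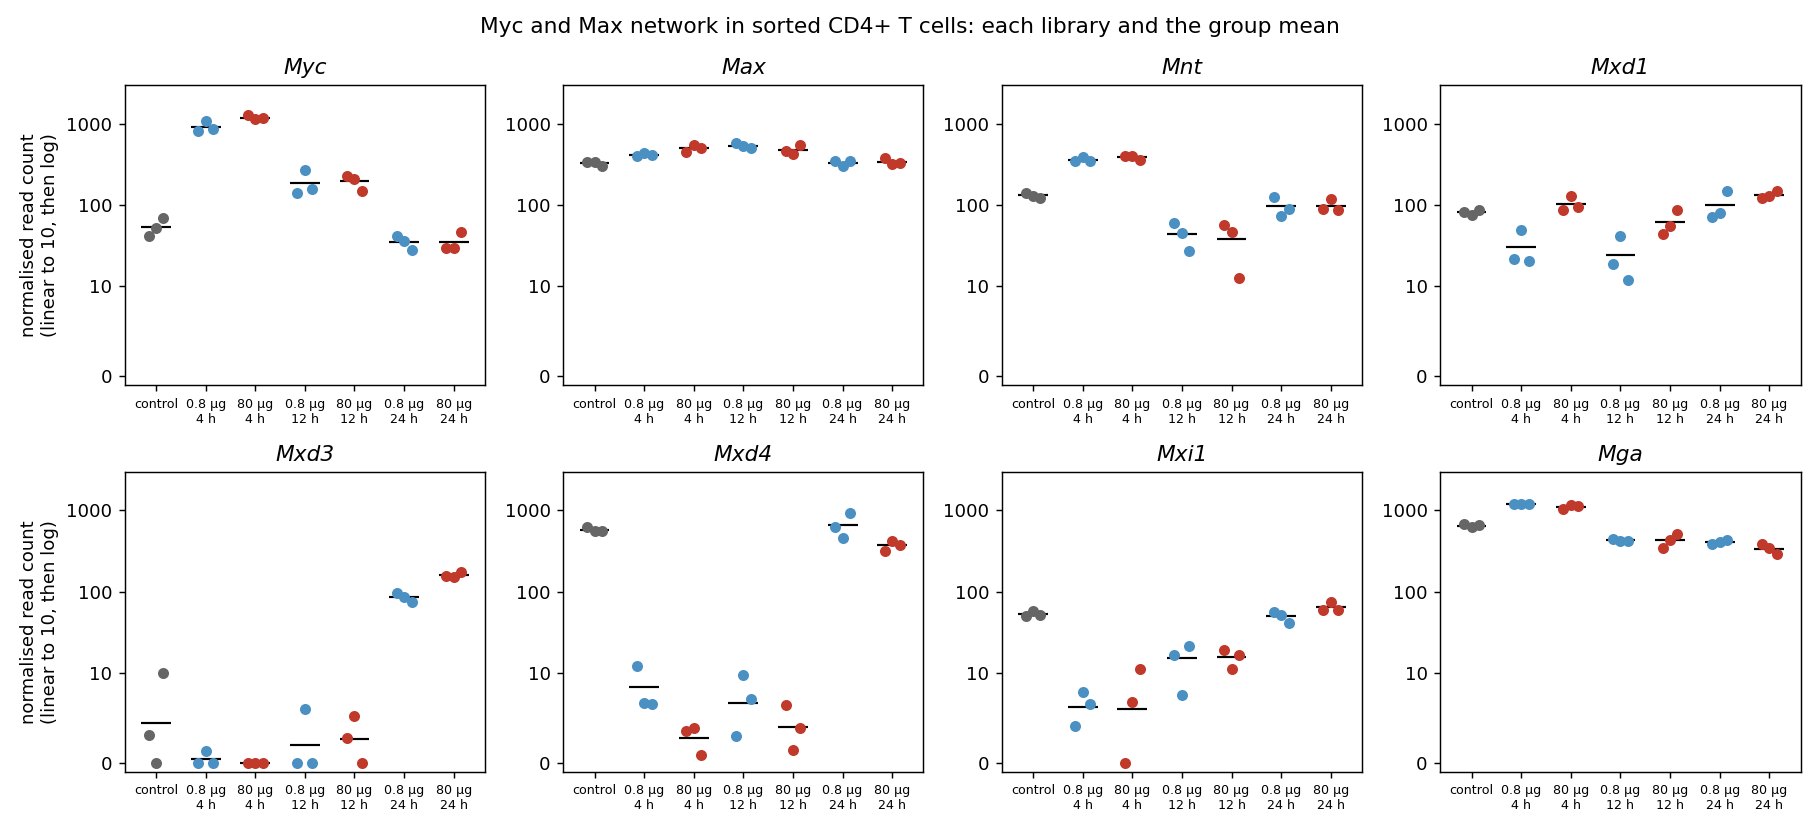
Normalised counts of the 8 genes in each of the 21 libraries, 1 panel per gene, by group on the horizontal axis, with points for single libraries and a bar for the group mean. Myc is highest in the 6 libraries of 4 h (813 to 1267), Mxd4 is below 13 in every 4 h and 12 h library, and Mxd3 is above 70 only at 24 h.

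Myc itself was found at 41.2, 51.7 and 68.5 normalised counts in the control libraries (53.8 ± 13.8, SD, n = 3). At 4 h it stood at 813, 1070 and 871 after 0.8 µg (918 ± 135) and at 1267, 1140 and 1157 after 80 µg (1188 ± 69.1). All 6 libraries lay far above the control, and the lowest 80 µg library lay above the highest 0.8 µg library. The log2 fold changes from control were 4.06 ± 0.23 (SE, adjusted p = 2.86e-68) and 4.43 ± 0.23 (adjusted p = 1.44e-81). At 12 h the levels were 139, 266 and 156 (0.8 µg, 187 ± 68.6) and 226, 208 and 147 (80 µg, 194 ± 41.5). They overlapped each other but not the control, from which they differed by 1.80 ± 0.23 (adjusted p = 1.27e-13) and 1.84 ± 0.23 (adjusted p = 2.54e-14) on the log2 scale. At 24 h Myc stood at 40.9, 35.4 and 27.9 (0.8 µg) and 29.6, 29.4 and 46.2 (80 µg). The 80 µg libraries overlapped the control range, those of 0.8 µg all lay below it, and neither group passed the test (-0.59 ± 0.26, adjusted p = 0.0626, and -0.56 ± 0.26, adjusted p = 0.0688). Both passed when control replicate 1, the lowest control library, was left out (adjusted p = 0.0300 and 0.0324), and the 80 µg group also did without its replicate 3 (adjusted p = 0.0176).

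The noncoding neighbour of Myc, Pvt1, was taken from a list with the Myc paralogs Mycn and Mycl, which did not reach the number of counts needed for a test. Pvt1 rose from 31.9 ± 11.4 normalised counts in the control to 177 ± 18.6 (0.8 µg) and 162 ± 15.5 (80 µg) at 4 h, a log2 difference of 2.45 ± 0.27 (adjusted p = 3.56e-18) and 2.33 ± 0.27 (adjusted p = 1.67e-16). It was still higher at 12 h, at 74.3 ± 22.9 after 0.8 µg (1.2 ± 0.28, adjusted p = 6.20e-05) and 60.0 ± 8.43 after 80 µg (0.91 ± 0.28, adjusted p = 0.00306), and stood at 22.9 and 24.2 at 24 h, without passing. Pvt1 thus went up and down at the same times as Myc.

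Max, the shared dimer partner of the other members, changed less than Myc. Control libraries held 335, 336 and 301 normalised counts (324 ± 19.7). At 4 h Max stood at 398, 429 and 410 (0.8 µg) and 450, 546 and 508 (80 µg), and at 12 h at 573, 532 and 504 and at 454, 423 and 547. Every library of these 4 groups lay above every control library. The largest log2 fold change was 0.72 ± 0.12 at 12 h after 0.8 µg (adjusted p = 7.42e-09), followed by 0.63 ± 0.12 at 4 h after 80 µg (adjusted p = 6.32e-07) and 0.54 ± 0.12 at 12 h after 80 µg (adjusted p = 1.97e-05). At 4 h after 0.8 µg the difference was 0.34 ± 0.12 (adjusted p = 0.0110). That last difference did not pass without control replicate 3 (0.30, adjusted p = 0.0554) and with scaling to library totals (0.19, adjusted p = 0.251). At 24 h the libraries overlapped the control at both doses (means 328 ± 24.2 and 338 ± 31.3), and the differences of 0.01 and 0.05 did not pass.

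**Figure D2:**
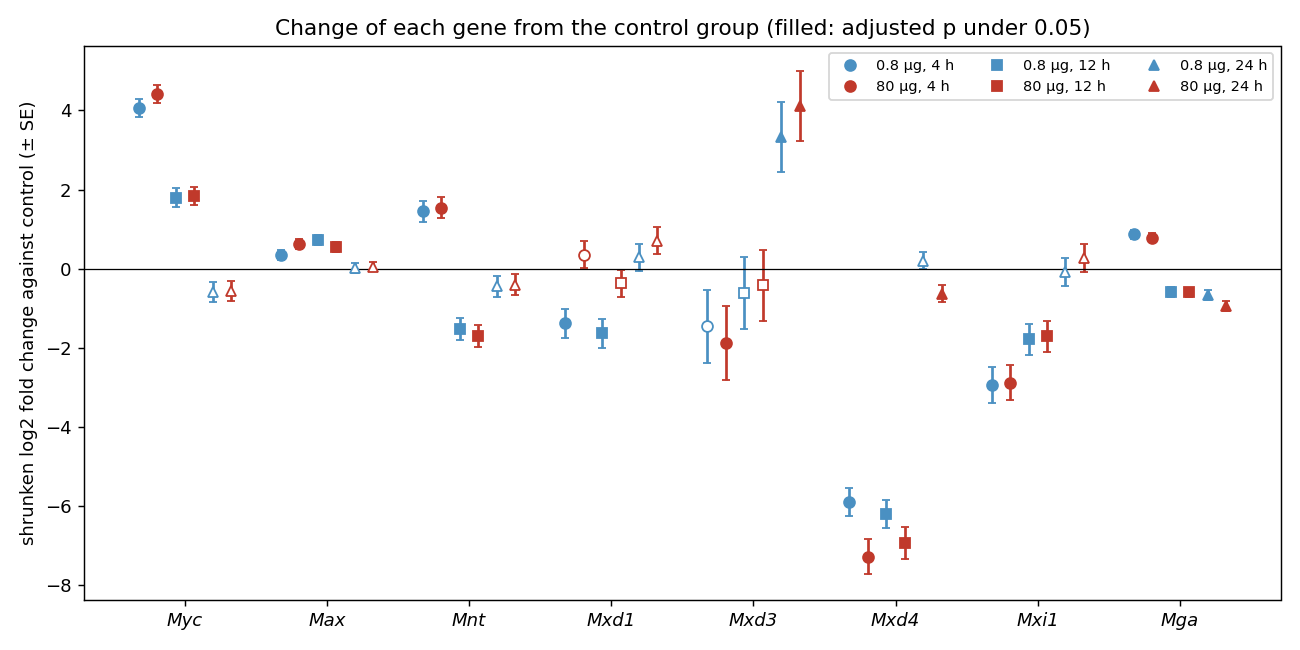
Shrunken log2 fold change from the control for each of the 8 genes in the 6 immunised groups, with SE. Myc reaches 4.06 and 4.43 at 4 h and Mxd4 lies between -5.91 and -7.29 at 4 and 12 h, while Max stays within 0.72 of the control.

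Mxd4, a MAX partner that represses at E-boxes, fell most. It stood at 623, 561 and 550 normalised counts in the control (578 ± 39.3). At 4 h it stood at 12.1, 6.59 and 6.47 (0.8 µg) and 3.47, 3.87 and 0.857 (80 µg), and at 12 h at 2.94, 9.78 and 7.04 and at 6.39, 1.47 and 3.89. No library of 4 or 12 h came near the control. The raw counts behind the 4 h levels were 12, 5 and 6 at 0.8 µg and 3, 4 and 1 at 80 µg, against 604, 553 and 385 in the control. Log2 fold changes were -5.91 ± 0.35 (0.8 µg, 4 h, adjusted p = 1.50e-58), -7.29 ± 0.45 (80 µg, 4 h, adjusted p = 1.27e-43), -6.22 ± 0.35 (0.8 µg, 12 h, adjusted p = 1.25e-62) and -6.95 ± 0.40 (80 µg, 12 h, adjusted p = 5.65e-56). At 24 h Mxd4 was back at 617, 451 and 928 after 0.8 µg (666 ± 242), on both sides of the control (0.20, adjusted p = 0.508). After 80 µg it stood at 319, 414 and 377 (370 ± 47.8), below every control library (-0.63 ± 0.22, adjusted p = 0.0117). This smaller difference did not pass without control replicate 1 (-0.55, adjusted p = 0.0619) or without 80 µg 24 h replicate 1 (-0.56, adjusted p = 0.0720), nor with limma on rlog values (adjusted p = 0.0661).

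Mxi1, also known as MXD2, shared this shape at lower counts. The control held 50.5, 56.8 and 51.4 normalised counts (52.9 ± 3.4). At 4 h the levels were 4.04, 7.90 and 6.47 (0.8 µg) and 0, 6.78 and 11.1 (80 µg), and at 12 h they were 16.7, 7.52 and 21.1 and 19.2, 11 and 16.5. All of these lay below the control, by -2.94 ± 0.46 (adjusted p = 2.08e-09) and -2.89 ± 0.44 (adjusted p = 8.34e-10) at 4 h and by -1.78 ± 0.39 (adjusted p = 2.12e-05) and -1.71 ± 0.39 (adjusted p = 3.26e-05) at 12 h on the log2 scale. At 24 h Mxi1 stood at 56.5, 51.3 and 41.3 (0.8 µg) and 59.2, 74.3 and 58.5 (80 µg). The 0.8 µg libraries overlapped the control and those of 80 µg lay just above it, and neither passed (-0.09, adjusted p = 0.881, and 0.27, adjusted p = 0.588). The summed levels of both the B cell and the CD4 T cell markers were low at the same 4 and 12 h time points at which Mxd4 and Mxi1 were low. For the 5 B cell markers the ranges were 32.4 to 54.5 CPM (0.8 µg, 4 h), 28.7 to 33.2 (80 µg, 4 h), 32.2 to 78.0 (0.8 µg, 12 h) and 37.5 to 77.0 (80 µg, 12 h), against 275 to 320 (0.8 µg) and 373 to 396 (80 µg) at 24 h, and their part in the result was not tested.

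Mxd3, the MXD gene known from proliferating cells, was close to absent until 24 h. The control had 3, 0 and 7 raw counts. At 4 h there were 0, 1 and 0 (0.8 µg) and 0, 0 and 0 (80 µg), and at 12 h there were 0, 8 and 0 and 3, 7 and 0. These groups overlap, and they lie at or near the floor of 3 counts per library. At 24 h Mxd3 stood at 95.4, 85.8 and 73.3 normalised counts after 0.8 µg (84.8 ± 11.1) and at 157, 151 and 174 after 80 µg (161 ± 12.3). Every 24 h library was above every other library, and the group means were 19.4-fold and 36.8-fold above the control. These ratios rest on control replicate 3, the highest control library, without which they were 54.9 and 104. The shrunken log2 fold changes, 3.33 ± 0.89 (adjusted p = 0.00254) and 4.11 ± 0.89 (adjusted p = 0.000158), were pulled towards 0 by the shrinkage, and without control replicate 3 they were 4.41 and 5.22. Without 80 µg 24 h replicate 3 the 80 µg value was 3.48 (adjusted p = 0.00654). The 80 µg 4 h group also passed (adjusted p = 0.0163), a difference of at least 1.46-fold when its 3 libraries at 0 are set at 3 counts each. It did not pass without control replicate 3 (-1.40, adjusted p = 0.133), and without control replicate 2, at 0 counts, the fitted value was -2.97 (adjusted p = 0.000325). In a fit of these 2 groups alone it also did not pass (-2.97, adjusted p = 0.0613).

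Mxd1, the MXD gene known from differentiating cells, fell after the low dose and not after the high dose. Its control level was 81.4, 75 and 85.7 normalised counts (80.7 ± 5.34). After 0.8 µg it fell to 21.2, 48.7 and 20.5 at 4 h (30.1 ± 16.1) and 18.6, 41.4 and 11.7 at 12 h (23.9 ± 15.5), all below the control, the log2 fold changes being -1.39 ± 0.37 (adjusted p = 0.000435) and -1.64 ± 0.37 (adjusted p = 2.70e-05). Without 0.8 µg 12 h replicate 2, the highest of its group, the 12 h value was -2.25. After 80 µg it stood at 85.6, 130 and 95.2 at 4 h (104 ± 23.2), at the top of the control range or above it, and at 43.8, 55.0 and 86.5 at 12 h (61.8 ± 22.1), on both sides of that range, and neither group passed (0.35, adjusted p = 0.396, and -0.37, adjusted p = 0.377). At 24 h it stood at 70.1, 78.3 and 149 (0.8 µg) and at 122, 130 and 147 (80 µg). The 80 µg libraries all lay above the control, without passing the test (0.70 ± 0.34, adjusted p = 0.0905, although it passed under edgeR, adjusted p = 0.0392, and in a fit of these 2 groups alone, adjusted p = 0.00564), and those of 0.8 µg overlapped it (0.29, adjusted p = 0.560).

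Mnt, the repressive MAX partner that is expressed in most cells, went up and then down. Control libraries had 138, 130 and 123 normalised counts (130 ± 7.68). At 4 h Mnt rose to 350, 387 and 344 (0.8 µg, 361 ± 23.3) and 402, 402 and 355 (80 µg, 386 ± 27.0), by 1.44 ± 0.26 (adjusted p = 8.43e-08) and 1.54 ± 0.26 (adjusted p = 7.92e-09) on the log2 scale. Mnt thus rose at 4 h together with Myc, whereas Mxd4 and Mxi1 fell. At 12 h it had fallen to 59.8, 44.4 and 27.0 (0.8 µg) and 55.7, 46.2 and 12.6 (80 µg), below the control by -1.53 ± 0.28 (adjusted p = 1.78e-07) and -1.72 ± 0.28 (adjusted p = 4.05e-09). At 24 h it stood at 126, 72.7 and 87.7 and at 89.9, 117 and 85.7. The 80 µg libraries lay below the control and those of 0.8 µg overlapped it, and neither difference passed (-0.41, adjusted p = 0.218, and -0.44, adjusted p = 0.192).

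Mga, the PRC1.6 member, rose at 4 h and was lower from 12 h on. The control held 675, 621 and 655 normalised counts (650 ± 27.6). At 4 h it stood at 1182, 1193 and 1198 (0.8 µg) and 1047, 1150 and 1146 (80 µg), at 12 h at 439, 425 and 425 and at 343, 429 and 517, and at 24 h at 388, 406 and 433 and at 380, 341 and 293. All 6 libraries of 4 h were above the control and all 12 of the later times were below it. The log2 fold changes were 0.87 ± 0.11 (0.8 µg, adjusted p = 1.03e-13) and 0.78 ± 0.11 (80 µg, adjusted p = 3.60e-11) at 4 h, and -0.60 ± 0.12 for both doses at 12 h (adjusted p = 1.48e-06 and 1.19e-06). At 24 h they were -0.67 ± 0.12 (0.8 µg, adjusted p = 1.48e-07) and -0.95 ± 0.12 (80 µg, adjusted p = 1.61e-14). Mga was the one member that passed below the control at 24 h at both doses.

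The high and the low dose were compared within each time, in cells sorted from the same Timer gate, to see whether the amount of antigen bore on these levels. At 4 h 1 of the 8 genes passed, Mxd1, and it was higher. Of all genes tested, 12% passed, 5.81% higher and 6.19% lower, and 5.85% were called, as Mxd1 was. The groups did not overlap for 5 of the 8 genes (28.7% of all genes). At 12 h Mxd1 again was the 1 gene that passed and was called, against 6.27% of all genes passing (3.67% higher, 2.6% lower) and 2.79% called, and the groups did not overlap for 1 gene (19% of all genes). At 24 h the 1 gene that passed was Mxd4, which was lower and not called, against 5.93% passing (3.73% higher, 2.2% lower), 1.56% called and 22.4% not overlapping, where 4 of the 8 did not overlap.

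Mxd1 was 3.43-fold higher after 80 µg than after 0.8 µg at 4 h (log2 difference 1.74 ± 0.36, adjusted p = 4.20e-05), and the highest 0.8 µg library, 48.7, lay well under the lowest 80 µg library, 85.6. At 12 h the ratio was 2.58 (1.27 ± 0.37, adjusted p = 0.0129), with 41.4 as the highest low-dose and 43.8 as the lowest high-dose value. The summed CD8 T cell markers also did not overlap between these groups (43.6 to 51.3 CPM after 0.8 µg, 13.1 to 22.7 after 80 µg). Their part in the result was not tested. Without 0.8 µg 12 h replicate 2 the ratio of Mxd1 was 4.07 (1.87, adjusted p = 0.000292). The 12 h difference did not pass without 0.8 µg 12 h replicate 1 (1.10, adjusted p = 0.108) or replicate 3 (0.97, adjusted p = 0.102) or without 80 µg 12 h replicate 3 (0.97, adjusted p = 0.158), and in a fit of these 2 groups alone (0.78, adjusted p = 0.0666). The 24 h difference of 0.42 ± 0.34 did not pass (adjusted p = 0.6). Mxd4 at 24 h was lower after 80 µg, by -0.84 ± 0.22 on the log2 scale (ratio 0.556, adjusted p = 0.00439). It did not pass without 0.8 µg 24 h replicate 3, the highest of the group at 928 (-0.51, adjusted p = 0.0993), or without 80 µg 24 h replicate 1 (-0.76, adjusted p = 0.0526). It also did not pass in a fit of these 2 groups alone (-0.63, adjusted p = 0.120) and with limma on rlog values (adjusted p = 0.119).

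For the other members no dose difference passed the test after adjustment, although some exceeded their SE by more than 2 times. Myc at 4 h was 1.29-fold higher after 80 µg (0.37 ± 0.20, adjusted p = 0.265) with no overlap between doses, and passed in a fit of these 2 groups alone (0.38, adjusted p = 0.00329). At 12 and 24 h its dose difference was 0.04 (adjusted p = 0.960) and 0.03 (adjusted p = 0.971). Mxd4 at 4 h, already near the floor, was lower after 80 µg (-1.38 ± 0.52) at an adjusted p of 0.0542. Mxd3 at 24 h was 1.89-fold higher after 80 µg with no overlap, yet with a log2 difference of 0.77 ± 0.87 and an adjusted p of 0.773 in the fit over all groups, and it passed in a fit of these 2 groups alone (adjusted p = 0.00158). Mga at 24 h was lower after 80 µg by -0.28 ± 0.12 (adjusted p = 0.170), and Max at 4 h was higher by 0.28 (adjusted p = 0.105). None of these passes the test, which does not show that the doses act alike.

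**Figure D3:**
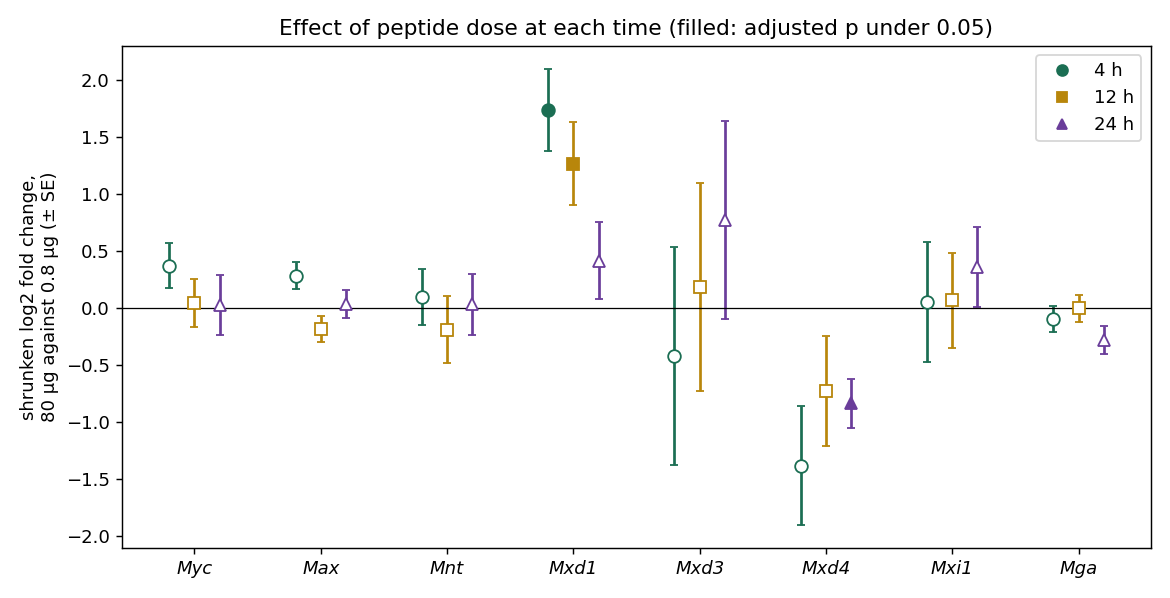
Shrunken log2 difference of 80 µg from 0.8 µg with SE at 4, 12 and 24 h for the 8 genes. Mxd1 lies at 1.74 and 1.27 at 4 and 12 h, and Mxd4 at -0.84 at 24 h.

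A likelihood ratio test of DESeq2 asked whether the dose difference changed between the 3 times in the 18 immunised libraries. It found 0 of the 8 genes at an adjusted p under 0.05, where 10.4% of all genes passed, and edgeR's quasi-likelihood test also found 0. At an unadjusted p under 0.05 both tools found 2 genes. DESeq2 gave Max an unadjusted p of 0.0240 (adjusted p = 0.147) and Mxd1 one of 0.0338 (adjusted p = 0.183). Mxd1 passed DESeq2's test without 0.8 µg 4 h replicate 2 (adjusted p = 0.0356) or without 0.8 µg 12 h replicate 2 (adjusted p = 0.0435), and Max without 80 µg 12 h replicate 3 (adjusted p = 0.0294). The fading of the Mxd1 dose difference from 4 to 24 h is therefore not shown by the full set of libraries.

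Within a dose, the steps from 4 to 12 h and from 12 to 24 h followed the order in which the members turned over. From 4 to 12 h after 0.8 µg, 2 genes rose (20.9% of all genes) and 3 fell (18.2%), and after 80 µg 1 rose (23.6%) and 3 fell (19.3%). The 3 that fell at either dose were Myc, Mnt and Mga. Myc fell by 2.26 ± 0.20 on the log2 scale after 0.8 µg (adjusted p = 1.43e-26) and by 2.59 after 80 µg (adjusted p = 2.15e-35), Mnt fell by 2.97 (adjusted p = 7.65e-26) and fell by 3.26 (adjusted p = 4.91e-31), and Mga fell by 1.47 (adjusted p = 2.60e-35) and 1.37 (adjusted p = 1.41e-31). Mxi1 rose at both doses (1.15 ± 0.48, adjusted p = 0.0424, and 1.17, adjusted p = 0.0285), in each dose at levels of a few counts. The rise of Mxi1 at 0.8 µg was lost without 4 h replicate 1 or 3 or 12 h replicate 1 or 3, each left out alone (adjusted p = 0.0839 to 0.183). It also did not pass under edgeR (1.25, adjusted p = 0.0686) or with limma on rlog values (0.73, adjusted p = 0.0684). In a fit of these 2 groups alone it was lost too (0.97, adjusted p = 0.181). At 80 µg the rise of Mxi1 was lost without 4 h replicate 1 or 2 or 12 h replicate 1 or 3 (adjusted p = 0.0602 to 0.228), the largest loss being that without 4 h replicate 1 at 0 counts (0.69). In a fit of the 2 groups of 80 µg alone this rise also did not pass (1.06, adjusted p = 0.174). Max rose after 0.8 µg (0.38 ± 0.12, adjusted p = 0.00447) and not after 80 µg (-0.08), a difference between doses that the interaction test above did not pass.

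From 12 to 24 h after 0.8 µg, 5 genes rose (24.9% of all genes) and 2 fell (19.1%), and after 80 µg 5 rose (24.9%) and 3 fell (19.8%). The 5 that rose were the repressive members, the 4 MXD genes and Mnt, at both doses. Mxd4 rose most, by 6.42 ± 0.35 after 0.8 µg (101-fold, adjusted p = 3.69e-66) and by 6.31 after 80 µg (94.4-fold, adjusted p = 2.33e-46) on the log2 scale. Mxd3 rose by 3.95 (adjusted p = 0.000196) and 4.54 (adjusted p = 1.55e-05), Mxd1 by 1.93 (adjusted p = 7.22e-07) and 1.08 (adjusted p = 0.00473), Mxi1 by 1.70 (adjusted p = 6.87e-05) and 1.99 (adjusted p = 1.04e-06), and Mnt by 1.09 (adjusted p = 0.000407) and 1.31 (adjusted p = 1.28e-05). Without 0.8 µg 12 h replicate 2 the rise of Mxd3 after 0.8 µg was 6.29 and that of Mxd1 was 2.54, and without any 1 of the 80 µg 24 h libraries the rise of Mxd3 after 80 µg was 3.87 to 3.93. Without 0.8 µg 24 h replicate 1 the rise of Mxd3 after 0.8 µg was 3.32. In the same interval Myc fell by 2.39 (adjusted p = 1.70e-21) and fell by 2.40 (adjusted p = 2.47e-23) and Max by 0.71 (adjusted p = 1.42e-08) and 0.49 (adjusted p = 9.61e-05). Mga fell after 80 µg (-0.35 ± 0.12, adjusted p = 0.00864), with overlapping libraries, and did not pass without 80 µg 12 h replicate 3 (-0.20, adjusted p = 0.158) or without 80 µg 24 h replicate 3 (-0.25, adjusted p = 0.105). After 0.8 µg Mga did not pass (-0.07, adjusted p = 0.669), a difference between doses that the interaction test above did not pass (adjusted p = 0.601).

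The order of the 7 groups by mean level differed from gene to gene. For Myc the order was 80 µg 4 h, 0.8 µg 4 h, 80 µg 12 h, 0.8 µg 12 h, control, 80 µg 24 h and 0.8 µg 24 h, in which the 12 h doses overlapped, as did control and 80 µg 24 h, and the doses of 24 h. For Max all neighbours overlapped except 0.8 µg 4 h and 80 µg 24 h, so that 4 and 12 h formed an upper set and 24 h and control a lower one. For Mnt the 2 doses overlapped at each time, and between times the neighbouring groups did not. Mxd3 separated 80 µg 24 h from 0.8 µg 24 h and both from the rest, in which all neighbours overlapped. Neighbouring groups of Mxd1 overlapped throughout the order.

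The difference between Myc and its repressive competitors was summarised per library as log2 normalised counts of Myc minus the mean of Mxd1, Mxd3, Mxd4, Mxi1 and Mnt, with 1 added to each count. Only differences between groups are read from it, since counts of different genes are not on 1 scale. It was -0.28 ± 0.39 in the control (-0.70, 0.07 and -0.21), 5.89 ± 0.14 and 6.36 ± 0.45 at 4 h (0.8 µg and 80 µg), 3.99 ± 0.12 and 3.85 ± 0.10 at 12 h, and -1.76 ± 0.37 and -1.97 ± 0.38 at 24 h. The 12 libraries of 4 and 12 h all lay above the control, by 6.17 and 6.65 at 4 h and 4.27 and 4.13 at 12 h in the means. All 6 libraries of 24 h lay below it, by -1.48 and -1.69. That last step rested on Mxd3, since without it the differences at 24 h were -0.55 and -0.58 and the libraries overlapped the control.

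**Figure D4:**
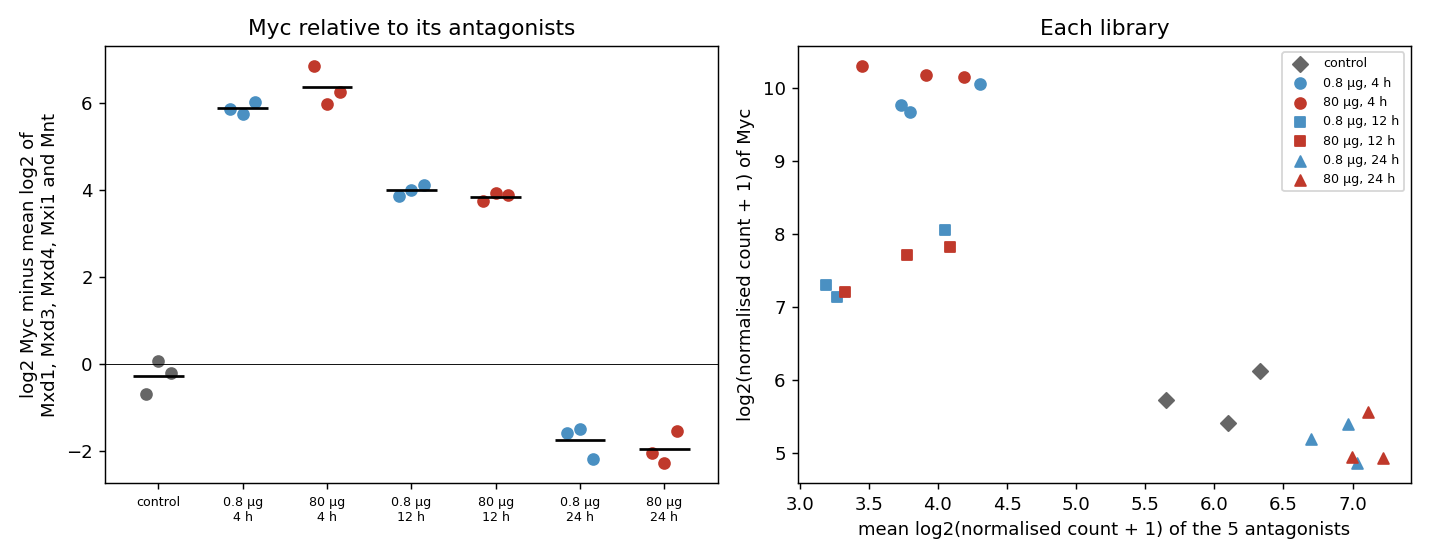
Left, log2 Myc minus the mean log2 level of Mxd1, Mxd3, Mxd4, Mxi1 and Mnt in each library by group, with the group mean. Right, log2 Myc against the mean log2 level of these competitors in each library. In the left panel the 4 h groups lie near 6, the 12 h groups near 4, and the 24 h groups (-1.76 and -1.97) below the control (-0.28).

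Genes known to be activated by MYC were taken as 4 lists with 45 members: nucleolar and ribosome production (18), metabolic (13), nutrient transport (6) and translation and cell cycle (8). The lists were written with earlier results of these data known, so that their counts are a description and no independent evidence of MYC activity. Against the control, 44 of the 45 were higher and 0 lower at 4 h after 0.8 µg, and 45 of 45 were higher at 4 h after 80 µg and at 12 h after either dose. Of all genes, 25.4% were higher and 29.2% lower at 4 h after 0.8 µg, 26.3% and 30.7% at 4 h after 80 µg, 25.2% and 27.9% at 12 h after 0.8 µg, and 25.3% and 27.4% at 12 h after 80 µg. The exception was Slc2a1, a glucose transporter (0.26 ± 0.28, adjusted p = 0.45). Their median log2 fold changes were 3.05, 2.94, 2.60 and 2.60, where the medians of all genes tested were -0.13, -0.15, -0.11 and -0.11. At 24 h 35 were higher and 1 lower after 0.8 µg (median 1.02) and 32 higher and 1 lower after 80 µg (median 0.76), while the median of all genes was 0.00 at 0.8 µg. Of all genes at 24 h, 20.8% were higher and 15.2% lower after 0.8 µg, and 22.1% and 16.9% after 80 µg. The 1 lower gene was Ccnd2, the D-type cyclin, in both groups. From 12 to 24 h 44 of the 45 fell after 0.8 µg (19.1% of all genes) and 45 of 45 after 80 µg (19.8%).

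These lists differed in how long they stayed up, as a description of their medians. Nutrient transport went from 3.01 at 4 h after 80 µg to 1.18 at 12 h and 0.25 at 24 h, and the metabolic list from 3.02 to 3.42 and 1.67. Among nucleolar genes at 4 h after 80 µg, the largest changes were those of Nolc1 (3.61 ± 0.14), Nop16 (3.59 ± 0.17), Rrp12 (3.59 ± 0.22) and Ncl (3.58 ± 0.09), Ncl encoding nucleolin. Ncl went from 3166 normalised counts in the control to 37977 at 4 h after 80 µg and was still at 9155 at 24 h. Metabolic genes were led by Hk2, the hexokinase of activated cells (7.09 ± 0.41), Odc1, the first enzyme of polyamine synthesis (5.22 ± 0.36), Slc19a1, a folate carrier (4.23 ± 0.20), and Srm, spermidine synthase (4.12 ± 0.18). Transport genes were led by Tfrc, the transferrin receptor (4.63 ± 0.15), and by the amino acid carriers Slc7a5 (3.91 ± 0.36), Slc7a1 (3.27 ± 0.11) and Slc1a5 (2.75 ± 0.12). The translation and cycle list was led by Eif5a (3.47 ± 0.10), Ccnd2 (2.84 ± 0.11), Eif4e (2.60 ± 0.14) and Eif2s1 (2.33 ± 0.18).

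Between doses, 5 of these 45 genes were higher and 1 lower after 80 µg at 4 h (5.81% and 6.19% of all genes were). At 12 h 1 was higher and 0 lower (3.67% and 2.6% of all genes), and at 24 h 1 was higher and 7 were lower (3.73% and 2.2%). The 4 h differences were led by Hk2 (1.75 ± 0.28, adjusted p = 3.38e-08), with 317 normalised counts after 0.8 µg and 1090 after 80 µg, and Slc2a1 (1.11 ± 0.26, adjusted p = 0.000372). At 12 h the gene was Odc1 (0.61 ± 0.17, adjusted p = 0.00662). At 24 h the lower genes were led by Fbl, the fibrillarin gene (-0.77), Slc19a1 (-0.62) and Nop16 (-0.52), while Ldha, lactate dehydrogenase A, was higher (0.36 ± 0.12, adjusted p = 0.0465). The interaction test passed for 6 of the 45, where 10.4% of all genes passed: Hk2 (adjusted p = 1.15e-07), Odc1 (0.0173), Slc19a1 (0.0191), Ccnd2 (0.0421), Slc3a2 (0.0476) and Fbl (0.0484). The dose difference of Hk2 passed at 4 h and not at 12 or 24 h.

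**Figure D5:**
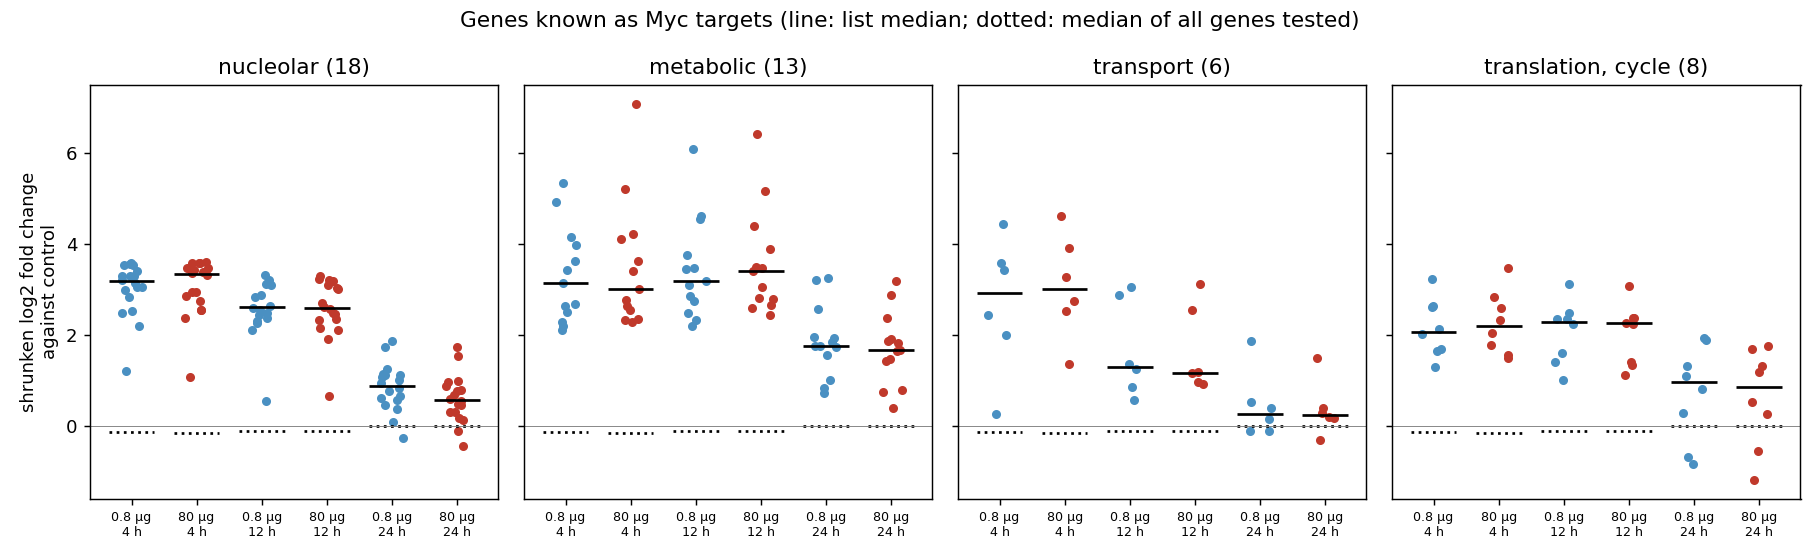
Shrunken log2 fold change from the control of the genes of each list of MYC-activated targets in the 6 immunised groups, with the list medians. Medians lie near 2 to 3 at 4 h, and by 24 h those of nutrient transport have come down to 0.27 and 0.25 while the metabolic list is at 1.76 and 1.67.

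Of 6 genes listed as repressed by MYC, 5 could be tested, and they did not move together. At 4 h 2 were higher and 3 lower at either dose, where 25.4% and 26.3% of all genes were higher and 29.2% and 30.7% lower (0.8 µg and 80 µg). Cdkn1b, which encodes the cyclin-dependent kinase inhibitor p27, fell from 646 normalised counts to 36.7 (0.8 µg) and 16.1 (80 µg), by -4.09 ± 0.22 and -5.22 ± 0.26. By 24 h its means were 384 and 456, between the 4 h levels and the control mean. Cdkn1a, which encodes p21 of the same function, rose from 1.64 to 19.7 and 68.2 (2.93 ± 0.64, adjusted p = 7.62e-05, and 4.65 ± 0.62, adjusted p = 6.42e-10). Its control mean lay under the floor of 3 counts per library, so that the size of this rise is uncertain. Cdkn1a was higher after 80 µg than after 0.8 µg at all 3 times, by 1.72, 2.13 and 2.01 (adjusted p = 0.00476, 0.000379 and 0.0148). Ndrg1, a stress-responsive gene, rose from 34.0 to 364 and 412 at 4 h. At 12 h it was lower than the control after 80 µg (mean 13, -1.32 ± 0.34, adjusted p = 0.000293) and overlapped it after 0.8 µg (mean 21, -0.61 ± 0.32, adjusted p = 0.0958).

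The cofactors of the network gave mixed counts. Of 10 coactivator genes, 7 were higher and 0 lower at 4 h after 0.8 µg, and 8 higher and 1 lower after 80 µg (of all genes, 25.4% were higher and 29.2% lower at 0.8 µg, and 26.3% and 30.7% at 80 µg). They were led by Ruvbl1, an ATPase of chromatin complexes (2.89 ± 0.18 at 80 µg), with Trrap, a scaffold that MYC binds, as the lower gene (-0.41 ± 0.17, adjusted p = 0.0283). Of 11 SIN3 complex genes, through which the MXD proteins and MNT repress, 5 were higher and 3 lower at 4 h after 80 µg, beside the same 26.3% and 30.7% of all genes. The histone deacetylase Hdac2 rose (1.41 ± 0.11) and its paralog Hdac1 fell (-1.41 ± 0.18), and the SIN3 subunits Arid4a (-1.95 ± 0.18) and Arid4b (-1.42 ± 0.12) fell. Arid4a was less reduced after 80 µg than after 0.8 µg at 4 h (0.89 ± 0.19, adjusted p = 7.09e-05). Of 9 PRC1.6 genes, the complex of MGA, 5 were higher and 1 lower at 4 h at either dose, beside these shares of all genes, with Tfdp1 (2.90 ± 0.63), Rybp (2.03 ± 0.39), Pcgf6 (1.99 ± 0.24) and E2f6 (1.53 ± 0.35) as the higher ones named by size and Cbx3 as the lower (-1.72 ± 0.15, at 80 µg). Tfdp1 had 3 counts in total over the control libraries, so that the size of its rise is uncertain. Of 8 germline genes that PRC1.6 silences in other cells, only 3 had enough counts for a test. At 4 h 2 of these were higher and 0 lower at either dose, beside the same shares of all genes. Tdrkh was higher at 4 h after 80 µg (3.14 ± 0.42). At 12 h 2 (0.8 µg) and 3 (80 µg) were higher, where 25.2% and 25.3% of all genes were.

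Of 9 genes for the turnover of MYC protein, 5 were higher and 2 lower at 4 h at either dose, where 25.4% and 26.3% of all genes were higher and 29.2% and 30.7% lower (0.8 µg and 80 µg). Fbxw7, the ubiquitin ligase subunit that marks MYC for degradation, rose from 228 normalised counts to 455 (0.99 ± 0.15, adjusted p = 6.32e-10) and 404 (0.82 ± 0.15, adjusted p = 3.85e-07). Gsk3b, the kinase that primes MYC for FBXW7, fell (-2.27 ± 0.11 at 80 µg), as did Usp28, a deubiquitinase that opposes it (-1.67 ± 0.31). Usp28 was higher after 80 µg than after 0.8 µg at 24 h (1.09 ± 0.31, adjusted p = 0.0139). In the related arm of the network around MLX, 3 of 5 genes could be tested at 4 h. Txnip, a glucose-responsive target of MLX dimers, fell from 980 normalised counts to 9.55 (0.8 µg) and 5.43 (80 µg) at 4 h and was at 209 and 278 at 24 h, still below the control (-2.11 ± 0.48, adjusted p = 7.79e-05, and -1.72 ± 0.48, adjusted p = 0.00152). Mlxip, an MLX partner, was higher at 4 h (0.65 ± 0.15 at 80 µg) and lower at 12 h (-1.16 ± 0.16), the same sequence as Mnt and Mga, and Mlx itself was higher at 12 h (0.69 ± 0.19, adjusted p = 0.000581).

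To place each member among all genes, the 3 genes of highest Pearson correlation with it were taken over the 21 libraries, among the 8762 genes whose mean level was 20 normalised counts or more. The 21 points come from 7 groups, so that these correlations describe mainly the group means, and no p is given. Nearest to Myc were Ddx10, an RNA helicase of ribosome production (r = 0.990), Purb (0.985) and Spata5 (0.980). Among those of Mxd4 were Mindy2 (0.977) and Trbc1, a T cell receptor constant region (0.973). Nearest to Mxd3 were the mitotic spindle gene Nusap1 (0.962) and the histone genes Hist1h1b (0.959) and Hist1h2an (0.953). Mnt lay nearest to Birc3, a target of NF-kB (0.939), Zfp36l1, an mRNA decay factor (0.936), and Erbin (0.926). Max was nearest to Exosc7, an exosome subunit (0.937), Mxi1 to Slc28a2, a nucleoside transporter (0.951), Mga to Fbxo11 (0.972) and Mxd1 to the transcript Gm44292 (0.929). Among the members themselves, Myc had r = -0.897 with Mxi1, -0.847 with Mxd4, 0.792 with Mga and 0.656 with Max, again over these 21 libraries. With the other repressive members r was -0.749 (Mxd3), -0.371 (Mxd1) and 0.521 (Mnt).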

How the data were processed

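RNA of sorted CD4+ T cells was sequenced with the QuantSeq 3′ mRNA forward kit. Per the study's methods and processing notes, the authors merged 4 lanes, trimmed reads with Bbduk, aligned them to GRCm38 (mm10) with STAR 2.5.2a and counted them with HTSeq-count, and they deposited raw counts of 47643 genes for 21 samples. They also deposited log2 values (the rlog transform of DESeq2) for 15249 genes, used here only for gene names and as an alternative. The strand setting, the annotation release and the use of molecular identifiers are not given in the sources used here, so that counting error is a lower limit of the error.

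As in the study's methods, genes with at least 10 counts over all samples were fitted with DESeq2 1.42.0 (R 4.3.3, 1 coefficient per group, median-of-ratios size factors, Wald test, normal shrinkage of log2 fold changes, Benjamini-Hochberg adjustment over all genes tested). Genes that DESeq2 filtered for low counts have no adjusted p. The 13 comparisons were each immunised group against the control (6), 80 µg against 0.8 µg at each time (3) and successive times within a dose (4), with a likelihood ratio test for the interaction. Fold changes printed with an SE are shrunken log2 values, and ratios are of mean normalised counts. Groups came from the sample titles, and no 2 libraries of a group agreed within sampling noise. Alternatives were edgeR 4.0.16, limma 3.58.1 on rlog values, other size factors and filters, no shrinkage, fits of 2 groups, a replicate block and each library left out in turn. The scripts were tested on simulated data.

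All 8 genes are named. Of each gene list, up to 4 genes per direction with the largest shrunken change among those that passed and had a mean of at least 20 normalised counts are named, and any others were chosen after their values were seen. The members and the lists were chosen with earlier results of these data known. The floor was 3 counts per library. Of these, 1 gene near Mxd4 and 1 marker list are not reported here.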

Additional observations from a re-analysis of the deposited data

How the results depend on the processing

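Of the 59 member differences that passed the test, none changed direction, and 58 still passed under edgeR, 59 with TMM size factors, 58 with library totals, 59 under either other count filter and without shrinkage, 54 in fits of 2 groups and 56 with limma on rlog values. When each library was left out in turn, 335 of 354 fits and 51 of the 59 results still passed. Mxd3, which had not passed at 12 h after 0.8 µg, ranged from -2.0 to 0.11 and changed sign without control replicate 3, and it passed at the lower value, without 0.8 µg 12 h replicate 2 (adjusted p = 0.0139). Other differences that passed only under an alternative were Mxd3 at 4 h after 0.8 µg without control replicate 2 (-2.44, adjusted p = 0.00689), Mga between doses at 24 h with library totals (-0.38, adjusted p = 0.0356), Myc at 24 h with limma (adjusted p = 0.0388 and 0.0314), and, from 4 to 12 h after 80 µg, Mxd1 and Mxd3 under edgeR (adjusted p = 0.0378 and 0.0251) and without 80 µg 12 h replicate 3 (-1.03, adjusted p = 0.0194, and 2.19, adjusted p = 0.0159). Over the same step Mxd1 also passed with a filter of 10 reads in 3 samples (-0.73, adjusted p = 0.0476). It passed in a fit of these 2 groups alone as well (-0.72, adjusted p = 0.0310). With library totals, the median log2 fold change of all genes moved by -0.16 at 4 h and by -0.24 at 24 h after 80 µg. At that scaling 2 members were called at 24 h after 80 µg and 2 passed between doses at 24 h, and the fall of Myc at 24 h passed (-0.73 and -0.79, adjusted p = 0.0253 and 0.0105). In fits of 2 groups, 2 members passed between doses at 4 h and 0 at 12 h (0 called), where all genes called numbered 139 instead of 311 at 12 h and 78 instead of 151 at 24 h. Limma on rlog values gave 0 members between doses at 24 h. The cause of these changes was not tested.

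The level of Myc minus its competitors, less the control, became 5.60, 5.85 and 3.81 on rlog values (0.8 µg 4 h, 80 µg 4 h and 0.8 µg 12 h), 7.06 and 7.58 at 4 h without Mnt, and 4.68 and 4.63 at 12 h and -0.55 and -0.58 at 24 h without Mxd3.

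With each library left out in turn, members passing against the control numbered 6 to 8 (0.8 µg) and 6 to 7 (80 µg) at 4 h, 7 to 8 and 6 to 6 at 12 h, and 2 to 3 and 2 to 4 at 24 h, and members called 5 to 6, 4 to 5, 5 to 6, 4 to 4, 1 to 1 and 1 to 2. Between doses 1 to 1, 0 to 1 and 0 to 1 passed, and as many were called. From 4 to 12 h 4 to 5 and 3 to 5 passed and from 12 to 24 h 7 to 7 and 7 to 8 (0.8 µg and 80 µg), and for the interaction 0 to 1. The level of Myc minus its competitors ranged from 5.96 to 6.34 and 6.4 to 6.84 at 4 h, 4.07 to 4.45 and 3.92 to 4.31 at 12 h, and -1.68 to -1.26 and -1.89 to -1.51 at 24 h.

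Same-numbered libraries did not deviate together (63 pairs, r from -0.204 to 0.211, 12 pairs over 0.1, 9 of 21 libraries closest to their own number). A pairing of the samples by number was thus not seen, which does not show that there was none. With a replicate block 56 of the 59 differences still passed, and 0 members passed between doses at 24 h. The 3 that no longer passed were Mxd4 at 24 h after 80 µg against the control (-0.62, adjusted p = 0.146), Mxd4 between doses at 24 h (-0.82, adjusted p = 0.179) and Mxi1 from 4 to 12 h after 0.8 µg (1.15, adjusted p = 0.0553). Depth limits Mxd3 before 24 h and Mxd4 and Mxi1 at 4 and 12 h, where libraries held few counts.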
